A study of Mus musculus with 36 samples.

Results

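The 26S proteasome is the complex that unfolds and degrades ubiquitin-tagged proteins. Its 20S core stacks a ring of alpha subunits, a pair of beta rings that hold the cutting sites, and a second alpha ring. The 19S cap, made of a base with an ATPase ring and a lid, recognises tagged proteins, removes the ubiquitin chain and feeds the substrate into the core. Dedicated chaperones assemble core and cap, and activators and an inhibitor bind the ends of the core. The transcription factor Nfe2l1 is known to raise most subunit genes together when proteasome activity falls.

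The genes described are those whose symbol starts with Psma, Psmb, Psmc, Psmd, Psme, Psmf or Psmg and a digit, without the immunoproteasome subunits Psmb8, Psmb9 and Psmb10, and with a mean of at least 1 FPKM (fragments scaled to transcript length and library size). The pattern matched 50 rows of the 24883 in each table. Leaving out the 3 immunoproteasome rows and 3 rows under the mean of 1 (Psma8, Psmb11 and Psme2b) kept 44 genes, among 11144 genes of unique symbol that passed the same mean. All 44 therefore passed the filter by the way they were chosen. They are 7 alpha subunits, 7 beta subunits, 6 ATPases, 3 other base subunits, 8 lid subunits, 3 chaperones of the 19S cap, 4 activators, 1 inhibitor, 4 chaperones of the 20S core, and Psmc3ip. Psmc3ip is no proteasome subunit but a meiotic recombination factor that the pattern also takes in.

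RNA came from whole kidneys of male wild-type C57BL/6J mice given a high-fat diet (HFD) or normal chow (NC) ad libitum from 6 weeks of age, and the labels give 16 weeks for the harvest. The lights were on for 12 h and off for 12 h, and kidneys were taken at zeitgeber times (ZT, hours after lights on) 0, 4, 8, 12, 16 and 20 with 3 mice in each of the 12 groups and 36 libraries in all. Genotype and strain are the same throughout, so diet and time are the only contrasts. A label field on diet mentions ZT3, which is not among the sampled times. In whole-kidney RNA, fewer cells of a type and less RNA per cell cannot be told apart.

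Relative depth, read from the steps of the low FPKM values, ran from 0.338 to 1.42 of the typical library under HFD and from 0.405 to 1.45 under NC. Kidney markers (8 genes such as Umod and Slc34a1) summed to 3414 to 4129 FPKM under HFD and 3110 to 4206 FPKM under NC. Adipocyte markers summed to 97.5 to 845 FPKM under HFD and 219 to 2996 FPKM under NC, and leukocyte markers to 15.6 to 29.9 FPKM under HFD and 15.5 to 27.7 FPKM under NC. Adrenal cortex markers reached at most 1.27 FPKM under HFD, but 3404 FPKM in NC ZT0 replicate 5, 712 FPKM in NC ZT4 replicate 2, 440 FPKM in NC ZT4 replicate 3 and 66.2 FPKM in NC ZT16 replicate 4. The slope of expression on gene GC content was lowest in NC ZT4 replicate 4 (−0.39 log2 units per 10 points of GC) and highest in NC ZT4 replicate 2 (0.44). These slopes were the extremes, and counts of called genes that change without either library are given with and without it.

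Promoter stretches are shown for the 4 genes past a threshold below and for a pair of catalytic subunits that hold the antioxidant response element core, the kind of site Nfe2l1 uses. They are from RefSeq (GRCm38.p6, 5′ to 3′ on the gene's strand), in lower case, with capitals marking TGACNNNGC in Psmb5 and Psmb6 and CACGTG, the E-box that clock factors use, in Psma4 and Psme3. None of the 5 motifs searched lay within 250 bases upstream of Psmd11 or Psmg1, which are shown in lower case throughout. The RefSeq starts of Psma4 and Psmb5 lie inside the genes as GENCODE has them, and both stretches shown end before the gene's first base.
Psmb5 (chr14:54618023-54618082, minus strand): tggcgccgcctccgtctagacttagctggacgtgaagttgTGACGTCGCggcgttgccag
Psmb6 (chr11:70525297-70525356, plus strand): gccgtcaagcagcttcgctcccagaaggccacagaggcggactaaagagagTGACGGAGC
Psma4 (chr9:54950692-54950751, plus strand): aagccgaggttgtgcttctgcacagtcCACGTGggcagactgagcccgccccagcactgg
Psme3 (chr11:101316142-101316201, plus strand): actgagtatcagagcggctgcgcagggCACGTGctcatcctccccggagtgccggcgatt
Psmg1 (chr16:95990961-95991020, minus strand): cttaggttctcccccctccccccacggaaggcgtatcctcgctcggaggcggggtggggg
Psmd11 (chr11:80428515-80428614, plus strand): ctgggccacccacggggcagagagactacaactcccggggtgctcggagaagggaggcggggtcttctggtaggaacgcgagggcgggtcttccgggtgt

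Of the 44 genes, 37 had a promoter in that table. Within 250 bases upstream of the start, on either strand, TGACNNNGC was found in 5 of the 37 promoters (13.5%, against 10.1% of all 27025 promoters), namely those of Psmb5, Psmb6, Psmc6, Psmd9 and Psmd12. CACGTG was found in 3 (8.11%, against 6.05% of all), those of Psma4, Psme3 and Psmd9. AGGTCA, the core that many nuclear receptors bind, was found in 8 (21.6%, against 13.8%), CCAAT in 13 (35.1%, against 34.5%), and TTATGTAA, the D-box, in none (0%, against 0.862%). These are matches of letters and describe the sequences only.

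The proteasome genes had a median level of 70.9 FPKM over the 36 libraries, against 7.84 FPKM over all genes tested. FPKM is scaled to length, so the genes are set side by side. The levels were not corrected here for GC content, which limits comparison between genes. The beta ring was highest, with means over the 36 libraries of 117 FPKM (Psmb2) to 271 FPKM (Psmb5), followed by the alpha ring, with 61.6 FPKM (Psma5) to 155 FPKM (Psma7). The ATPases that unfold substrates lay between 35.1 FPKM (Psmc6) and 125 FPKM (Psmc3), and the lid between 27.2 FPKM (Psmd11) and 95.9 FPKM (Psmd8). The other base subunits lay between 28.7 FPKM (Psmd1, a scaffold of the base) and 96.4 FPKM (Psmd4, a ubiquitin receptor). Assembly chaperones were lower, with 20.6 FPKM (Psmg2) to 27.2 FPKM (Psmg1) for the core and 13.4 FPKM (Psmd9) to 19.7 FPKM (Psmd5) for the cap. Activators ran from 14.9 FPKM (Psme4, which encodes PA200) to 80.2 FPKM (Psme2, a subunit of the PA28 ring), and the inhibitor Psmf1 (PI31) had 8.97 FPKM. Psmc3ip had 3.30 FPKM. Subunits of a ring that assemble in equal numbers differed in RNA level within each ring, and the ranges of the alpha and beta rings overlapped.

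**Figure D1:**
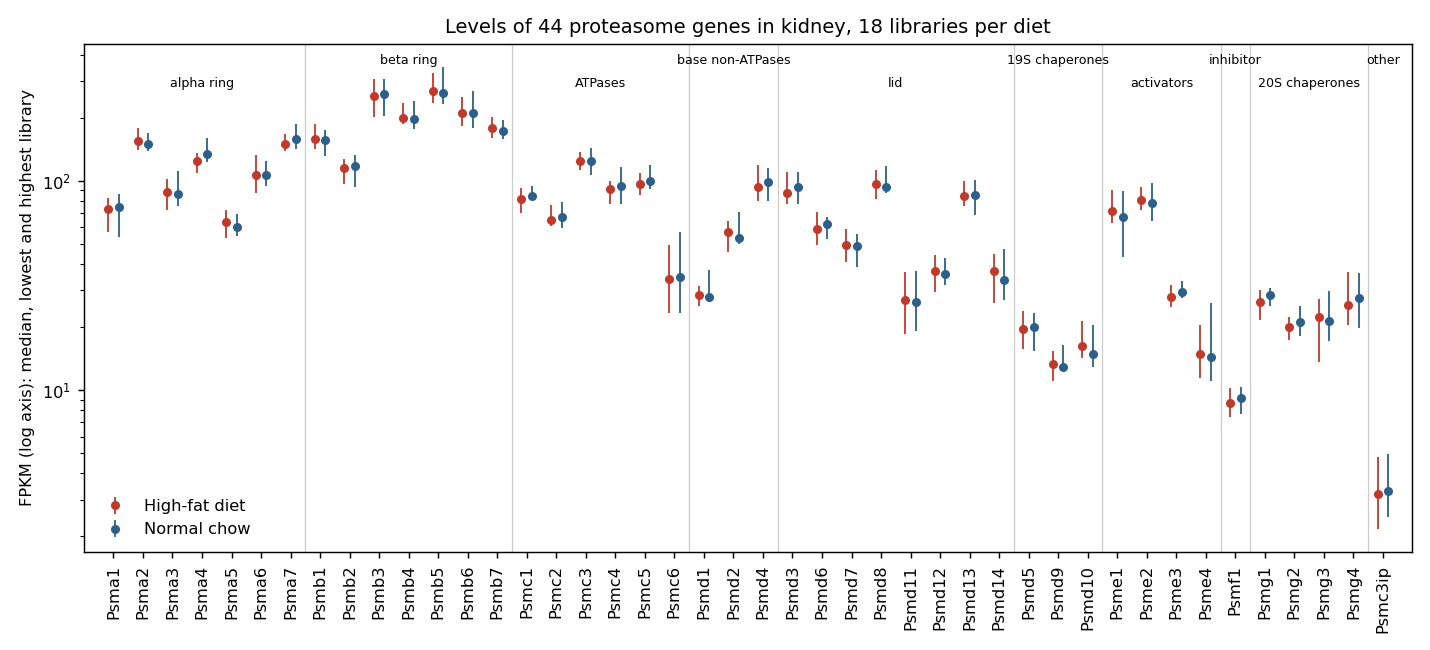
Level of each of the 44 genes (FPKM, log axis), ordered by role, with HFD left of NC. Dots are medians and bars run from the lowest to the highest of the 18 libraries of a diet; the bars of the diets overlap for every gene, with the beta ring highest and Psmc3ip lowest.

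The 3 catalytic subunits had nearly the same level under both diets. Psmb5, the chymotrypsin-like site, ran from 234 to 326 FPKM with a median of 268 FPKM in the 18 HFD libraries, and from 232 to 349 FPKM with a median of 262 FPKM in the 18 NC libraries. Its mean was 271 ± 21.8 FPKM under HFD and 270.2 ± 28.1 FPKM under NC (SD, n = 18 each), a log2 difference of 0.01 ± 0.04 (SE). Psmb6, the caspase-like site, averaged 212 ± 19.4 FPKM under HFD and 212 ± 24.5 FPKM under NC. Psmb7, the trypsin-like site, averaged 177 ± 10.7 FPKM under HFD and 173 ± 10.5 FPKM under NC, with a log2 difference of 0.04 ± 0.03. None of the 3 passed the threshold, and the HFD and NC libraries of each overlapped over most of their range.

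Averaged over the day, 3 of the 44 genes were lower under HFD and 0 were higher (limma with a mean-variance trend on log2(FPKM + 0.5), adjusted p under 0.05 with Benjamini-Hochberg adjustment over all 11144 genes). Among all genes tested, 11.4% were lower and 5.25% higher, 16.6% in all, so the 3 of 44 (6.82%) lie below the background and are no excess. At an unadjusted p under 0.05, 5 of the 44 were lower (11.4%, against 21% of all genes) and 1 was higher (2.27%, against 9.04%). The 3 are Psma4, an alpha ring subunit, Psmg1, the core chaperone PAC1 that helps to build the alpha ring, and Psme3, which encodes the nuclear activator PA28 gamma. With the libraries rescaled by median ratio or by upper quartile, none of the 3 passed. Adipocyte markers moved with diet too: 8 of 9 had the lower median under HFD (Lep had the higher), and their sum had a median of 309 FPKM under HFD and 872 FPKM under NC. No marker of the list was at 0 in every library, and its part in the 3 differences was not tested. Without the 4 libraries with adrenal RNA, NC ZT4 is replicate 4 alone. In that fit the 3 genes kept the lower level under HFD. The median log2 difference of the 44 was then −0.02, against −0.05 over all genes.

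Psma4 ran from 109 to 136 FPKM with a median of 125 FPKM in the HFD libraries, and from 123 to 159 FPKM with a median of 134 FPKM in the NC libraries. The lowest value belonged to HFD ZT12 replicate 5 and the highest to NC ZT0 replicate 1, and the diets overlapped. The mean was 125 ± 8.01 FPKM under HFD and 135 ± 8.36 FPKM under NC (SD, n = 18 each). The log2 difference was −0.12 ± 0.03 (SE), 0.922-fold, with an adjusted p of 0.0106 by limma, and the HFD mean was lower at 6 of 6 times. The call held when any 1 of the 36 libraries was left out. Psma4 lies at chr9:54950790-54958030 on the plus strand (GENCODE M21, GRCm38) and shares exonic bases with AY074887 on the other strand, whose reads this kit cannot separate.

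Psmg1 ran from 21.5 to 30.1 FPKM with a median of 26.2 FPKM in the HFD libraries, and from 25.1 to 30.7 FPKM with a median of 28.3 FPKM in the NC libraries. The mean was 26.1 ± 2.35 FPKM under HFD and 28.4 ± 1.8 FPKM under NC (SD, n = 18 each). The lowest value was in HFD ZT20 replicate 1, and the ranges overlapped over most of their width. The log2 difference was −0.13 ± 0.04 (SE), 0.917-fold, with an adjusted p of 0.0207 by limma, and the HFD mean was lower at 6 of 6 times. The call held when any 1 of the 36 libraries was left out and was lost without ZT0 and ZT4 (−0.13, adjusted p of 0.0641). Psmg1 lies at chr16:95979933-95990960 on the minus strand. Its partner Psmg2 had a log2 difference of −0.06, and Psmg3 and Psmg4, which form the other chaperone pair, had 0.00 and −0.10; none of these passed.

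Psme3 had 28.3 ± 1.82 FPKM under HFD and 29.8 ± 1.44 FPKM under NC (SD, n = 18 each), in ranges of 25.1 to 31.6 FPKM under HFD and 27.6 to 33.2 FPKM under NC that overlapped. The log2 difference was −0.08 ± 0.03 (SE) with an adjusted p of 0.0384 by limma. This call was lost in 20 of the 36 fits that leave out 1 library (11 of HFD libraries and 9 of NC libraries), and the adjusted p ran from 0.0213 to 0.0673 over the 36. It was also lost without ZT0 and ZT4 (adjusted p of 0.0527). Psme3 lies at chr11:101316213-101323537 on the plus strand. The other activators had log2 differences of 0.11 (Psme1), 0.06 (Psme2) and 0.00 (Psme4), none past the threshold.

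**Figure D2:**
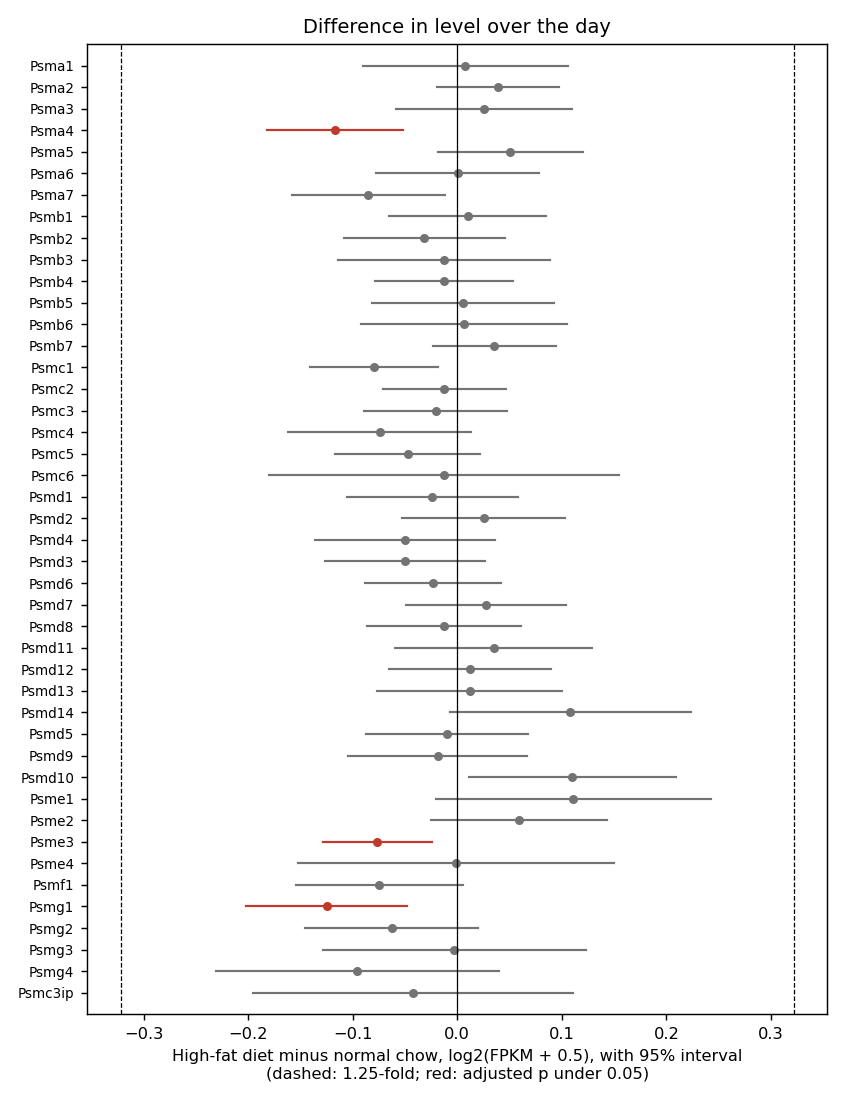
Difference in level over the day, HFD minus NC on the log2(FPKM + 0.5) scale, for each gene in order of role; dots are estimates, bars 95% intervals, and dashed lines a fixed fold change for scale. The 3 genes past the threshold (red: Psma4, Psme3 and Psmg1) lie below 0, and the intervals of all 44 lie between −0.23 and 0.24.

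The size of the diet difference averaged over the day was bounded closely. The 95% intervals of this average lay, for all 44 genes, between 0.852-fold (the lower end for Psmg4) and 1.18-fold (the upper end for Psme1), HFD over NC. Differences at a single time were bounded less closely, such as 0.33 ± 0.14 (SE) for Psmd14 at ZT8 and −0.31 ± 0.20 for Psmc6 at ZT4. Of the 44 log2 differences over the day, 39 were under 0.1 in size, with a median size of 0.03 against 0.08 over all genes tested. The signed median was −0.01, against −0.03 over all genes, and 18 of the 44 were above 0 (38.7% of all genes were). Median-ratio rescaling turned the sign of that median to 0.02, with −0.00180 over all genes. By role, the ATPases had a median of −0.03 with 0 of 6 above 0, and the core chaperones −0.08 with 0 of 4 above 0. The alpha ring had 5 of 7 above 0, the beta ring 4 of 7 and the lid 5 of 8. The ATPase nearest to 0 had −0.0123 and the core chaperone nearest to 0 had −0.0027. These counts by role were not recomputed with the libraries rescaled.

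The highest log2 differences that missed the threshold were those of Psmd10, Psmd14 and Psme1. Psmd10 (gankyrin, a chaperone of the base) averaged 16.5 ± 1.84 FPKM under HFD and 15.3 ± 1.65 FPKM under NC (SD, n = 18 each), a difference of 0.11 ± 0.05 with an adjusted p of 0.118 by limma. Psmd14, the deubiquitinase of the lid, averaged 36.9 ± 4.63 FPKM under HFD and 34.3 ± 5.14 FPKM under NC, with 0.11 ± 0.06 and an adjusted p of 0.200. Psme1, the other PA28 subunit, averaged 71.6 ± 7.45 FPKM under HFD and 66.9 ± 11.5 FPKM under NC, with 0.11 ± 0.06 and an adjusted p of 0.254. Psme1 had 0.22 (adjusted p of 0.00243 by limma) without the 4 libraries with adrenal RNA, where NC ZT4 is replicate 4 alone, the library with its lowest value (43.3 FPKM), and 0.06 (adjusted p of 0.343) without NC ZT4 replicate 4. Without NC ZT4 replicate 4, where 8.84% of all genes were called higher, Psmd10 and Psmd14 passed, with 0.14 (adjusted p of 0.0155 by limma) and 0.15 (adjusted p of 0.0164). With the GC correction both had 0.06 (adjusted p of 0.389 for Psmd10 and 0.303 for Psmd14), and without the libraries with adrenal RNA they had 0.06 and 0.03, so that neither passed.

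NC ZT4 replicates 2 and 4, the libraries of opposite GC slope, held the highest or lowest value of 21 of the 44 genes. Psmc6, at 37.0% exonic GC the most AT-rich of the 44, had 23.4 FPKM in replicate 2 and 57.1 FPKM in replicate 4. Psme4, at 43.9% GC, had 11 FPKM in replicate 2 and 26 FPKM in replicate 4. Psme1, at 54.9% GC, had 89.7 FPKM in replicate 2 and 43.3 FPKM in replicate 4, and Psmb5, at 56.6% GC, had 349 FPKM in replicate 2 and 232 FPKM in replicate 4. The 22 genes higher in replicate 4 had a median GC content of 47.0%, and the 22 lower there had 53.1%. With expression corrected for GC content, 5 of the 44 genes were lower over the day under HFD, Psmc1 and Psmc6 besides the 3 above, and 1, Psme1, was higher. Over all genes, 13.2% were lower and 6.95% higher in that fit, so these shares of the 44 (11.4% and 2.27%) are no excess either.

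At single times, 0 of the 44 genes passed in either direction, at any of the 6 times (limma). Over all genes, 0.637% were called higher and 0.951% lower at ZT0, 0.476% and 1.13% at ZT4, 0.108% and 0.224% at ZT8, 0.162% and 0.206% at ZT12, 0.269% and 0.287% at ZT16, and 0.126% and 0.135% at ZT20, so few calls are the norm here. Of the 264 tests, 9 had an unadjusted p under 0.05, 5 higher and 4 lower (1.89% and 1.52% of the 264, against 3.14% and 7.18% of the same tests over all genes). Of the 9, 4 were at ZT8, where Psmb7, Psmd2, Psmd10 and Psmd14 had the higher means under HFD (9.09% of the 44, against 4.21% of all genes higher there at that p). Psmd14 had 40.1, 43.5 and 38.3 FPKM in the HFD libraries at ZT8, against 36.2, 32.7 and 28.4 FPKM in the NC libraries (adjusted p of 0.451 by limma). Psmd10 had 21.5, 17.4 and 17.0 FPKM in the HFD libraries at ZT8, against 16.7, 15.6 and 14.0 FPKM in the NC libraries.

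Without the 4 libraries with adrenal RNA, 21 single-time calls appeared, all at ZT4 (47.7% of the 44, against 44.3% of all genes called at ZT4 in that fit), among them Psmb5, Psmc6, Psmd11 and Psme1. NC ZT4 then consists of replicate 4 alone, the library of extreme GC slope, and its variance is assumed to be that of the other groups. Without NC ZT4 replicate 2, the single-time calls were 3, Psmc6, Psme1 and Psme4, all at ZT4 (6.82%, against 16.2% of all genes there).

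One gene of the 44 passed the test of rhythm, Psmd11 under NC. It encodes the lid subunit Rpn6, which clamps the lid to the rest of the particle. A 24 h cosine was fitted in each diet's 18 libraries (limma, adjusted p under 0.05). Under HFD 0 of the 44 passed, against 7.3% of all genes called. At an unadjusted p under 0.05 there were 5 (11.4%, against 20.8% of all genes). Under NC 1 passed (2.27%), against 7.77% of all genes called. At an unadjusted p under 0.05 there were 4 (9.09%, against 22.8% of all genes). All these shares lie below the background. The test of the difference in rhythm between the diets called 0 of the 44, against 0.0269% of all genes called. At an unadjusted p under 0.05 it took in 0 of the 44, against 3.17% of all genes. The members with the smallest p there were Psmd1, Psmd11 and Psmd5. Psmd1 had a fitted peak-to-trough range of 0.11 log2 units under HFD and 0.14 under NC, and Psmd5 0.15 under HFD and 0.19 under NC, with an adjusted p of 1.00 by limma for each.

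Psmd11 had 36.5, 31.8 and 31.9 FPKM at ZT0 in the HFD libraries, against 37.1, 31.9 and 29.3 FPKM in the NC libraries. At ZT4 it had 25.4, 23.6 and 23.8 FPKM in the HFD libraries, against 25.5, 24.8 and 36.8 FPKM in the NC libraries, the last from replicate 4. At ZT8 it had 29.2, 25.3 and 26.5 FPKM in the HFD libraries, against 25.2, 23.2 and 21.5 FPKM in the NC libraries. Group means were lowest at ZT12 under both diets. At ZT12 the HFD libraries had 22.7, 21.5 and 18.5 FPKM, against 21.6, 20.4 and 19.2 FPKM in the NC libraries. At ZT16 the HFD libraries had 34.9, 31.0 and 29.5 FPKM, against 28.6, 27.3 and 25.5 FPKM in the NC libraries. At ZT20 the HFD libraries had 26.9, 29.2 and 26.9 FPKM, against 29.9, 28.5 and 27.8 FPKM in the NC libraries. In both diets all 3 libraries at ZT12 lay below all 3 at ZT0, at ZT16 and at ZT20.

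**Figure D3:**
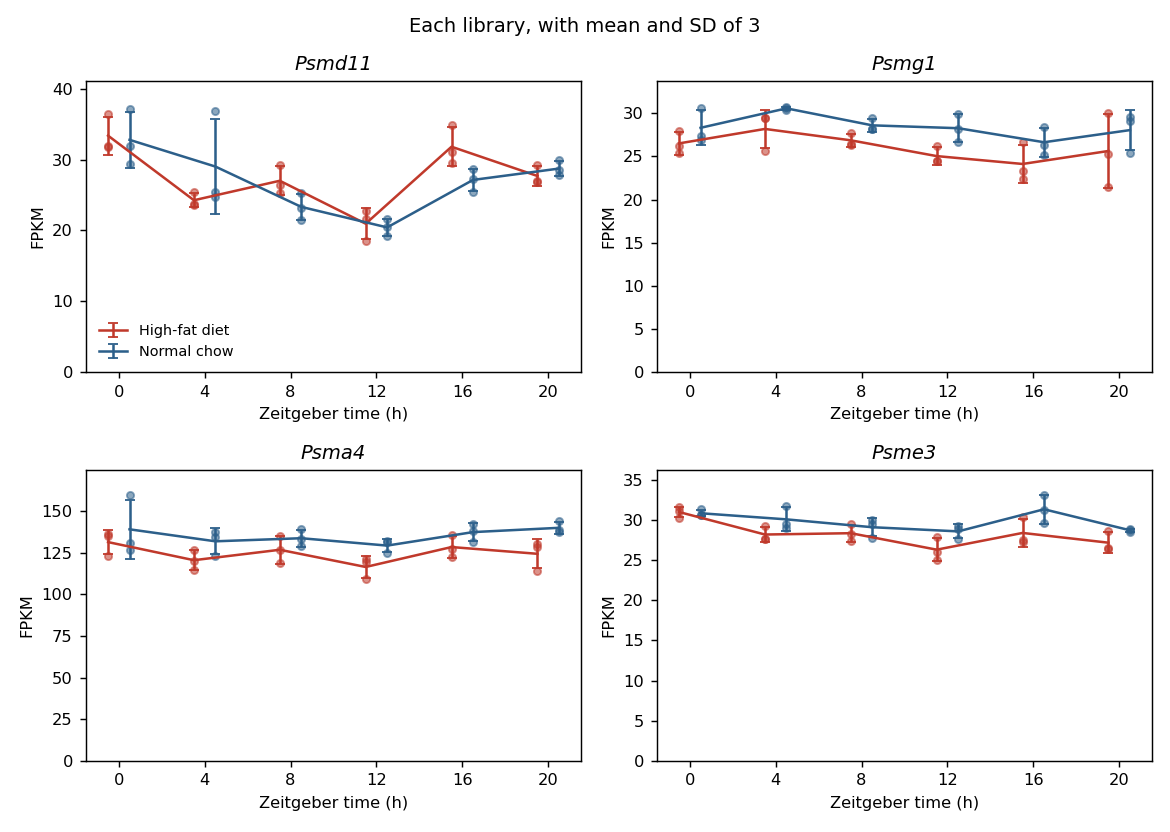
FPKM at each zeitgeber time (h) of the 4 genes past a threshold, with HFD left of NC; dots are libraries, lines join the means, and bars are SD (n = 3). Psmd11 is lowest at ZT12 under both diets, and the HFD means of Psmg1 and Psma4 lie below the NC means at all 6 times.

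The fitted peak-to-trough range of Psmd11 was 0.41 ± 0.13 log2 units under HFD (1.32-fold, peak at 21.6 ± 1.23 h, adjusted p of 0.144 by limma) and 0.58 ± 0.11 under NC (1.5-fold, peak at 23.1 ± 0.714 h, adjusted p of 0.00723; ± is SE). The test of the difference in rhythm had an adjusted p of 1.00 in limma, so the diets are not shown to differ. The NC call held without any 1 of the NC libraries and was lost without ZT0 and ZT4 (adjusted p of 0.0610) and with time as a factor of 6 levels (adjusted p of 0.0527). Under HFD the gene passed with median-ratio or upper-quartile rescaling and with time as a factor (adjusted p of 0.00113 by limma). Psmd11 lies at chr11:80428615-80473248 on the plus strand and shares no exonic bases with another gene.

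The smallest p values under HFD belonged to Psmd7, Psmg3 and Psmd6, ahead of Psmd11. Psmd7, the lid partner of the deubiquitinase, had a peak-to-trough range of 0.28 ± 0.07 under HFD (adjusted p of 0.0549 by limma) and 0.26 ± 0.09 under NC (adjusted p of 0.196). Its HFD libraries at ZT16 had 56.1, 57.2 and 58.6 FPKM, against 55.4, 50.7 and 53.0 FPKM in the NC libraries, and those at ZT12 had 45.8, 45.2 and 45.6 FPKM, against 40.9, 48.1 and 41.3 FPKM in the NC libraries. Psmg3, a core chaperone, had 0.42 ± 0.12 under HFD (adjusted p of 0.0702) and 0.27 ± 0.13 under NC (adjusted p of 0.387). Psmd6, another lid subunit, had 0.26 ± 0.08 under HFD (adjusted p of 0.118) and 0.17 ± 0.07 under NC (adjusted p of 0.312). The difference in rhythm between the diets had an adjusted p of 1.00 for each of these 3.

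**Figure D4:**
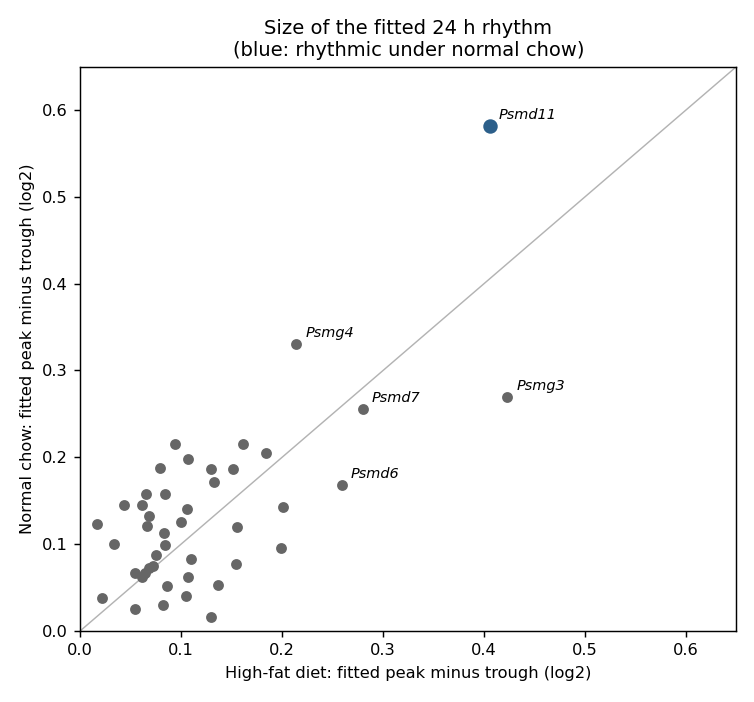
Fitted peak-to-trough range (log2) of each of the 44 genes, with HFD on the horizontal and NC on the vertical axis; the line marks equal ranges. Psmd11 (blue, past the threshold under NC) has 0.41 under HFD and 0.58 under NC, and the median gene 0.10 under HFD and 0.12 under NC.

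Across the 44 genes the median peak-to-trough range was 0.10 log2 units under HFD and 0.12 under NC, against 0.19 under HFD and 0.23 under NC over all genes. The smaller range was under HFD for 29 of the 44. The median over all genes was smaller under HFD too, and the share of all genes with the smaller range there was not counted. Fitted peaks, counted whatever their p, fell between 20 and 24 h for 19 of the 44 under HFD and 21 under NC, against 18% of all genes under HFD and 18.6% under NC. The highest group means under HFD lay elsewhere, at ZT4 for 17 of the 44 (38.6%, against 20.7% of all genes). They lay at ZT16 for 14 (31.8%, against 15.0%), at ZT0 for 5 (11.4%, against 22.0%) and at ZT20 for 4 (9.09%, against 4.59%). Under NC the highest group mean was at ZT20 for 12 (27.3%, against 5.94%). Group means were lowest at ZT8 or ZT12 for 32 of the 44 under HFD (72.7%, against 34.6% of all genes) and for 26 under NC (59.1%, against 37.5% of all genes). At ZT12 under HFD, 42 of the 44 group means lay below the gene's own mean (95.5%, against 67.5% of all genes), and at ZT12 under NC 28 did (63.6%, against 61.2%). The 44 genes share libraries, so these counts describe the same 6 groups of mice and are not 44 observations. Fitted with time as a factor of 6 levels in place of the cosine, 14 of the 44 passed under HFD (31.8%, against 28.4% of all genes called) and 0 under NC (3.37% of all genes).

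The libraries of a group differed among themselves. The median deviation of the 44 genes from their own means ran from −0.13 in HFD ZT12 replicate 5 to 0.13 in HFD ZT16 replicate 3 on the log2 scale. The 3 HFD ZT12 libraries all lay below 0, at −0.11 (replicate 4), −0.04 (replicate 2) and −0.13 (replicate 5), and replicate 5 held the lowest value of 12 of the 44 genes. In HFD ZT16 replicate 3, 37 of the 44 lay above their own mean, and in HFD ZT20 replicate 1 only 2 did, against 31 and 36 in HFD ZT20 replicates 3 and 4. The median deviation of all genes tested was lowest in the same library, HFD ZT12 replicate 5 (−0.10), and its part in the low values of the 44 was not tested. The summed level of the 44 ran from 3449 to 3995 FPKM under HFD and from 3425 to 4035 FPKM under NC.

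**Figure D5:**
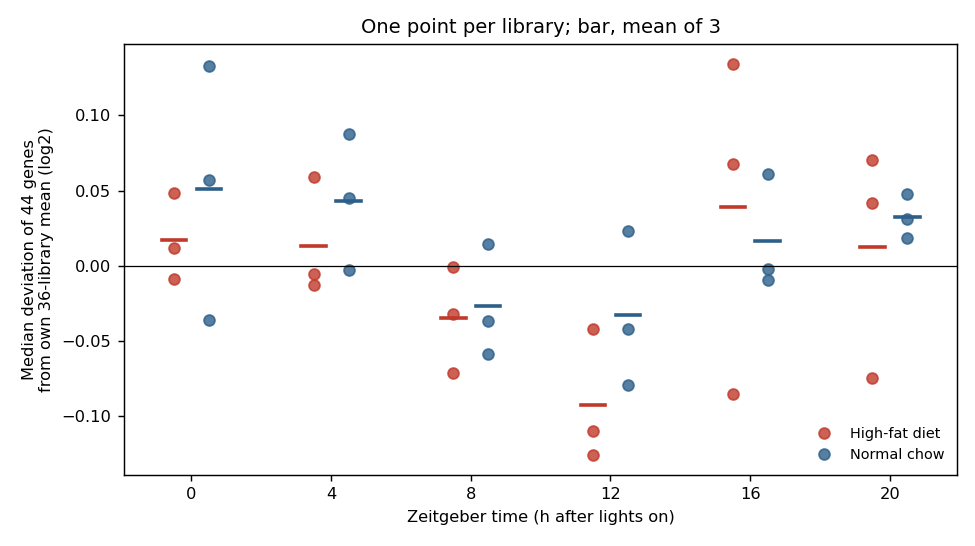
Median log2 deviation of the 44 genes from their own means in each library, by zeitgeber time (h), with HFD left of NC; dots are libraries and bars means of 3. Values run from −0.13 (HFD ZT12 replicate 5) to 0.13 (HFD ZT16 replicate 3), and replicates of HFD ZT16 and HFD ZT20 lie on both sides of 0.

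The genes varied little between libraries. The median coefficient of variation over the 36 libraries was 8.88% for the 44 genes and 17.2% over all genes tested. Among genes of at least 50 FPKM it was 8.08% for the 27 of the 44 and 11.9% over 1525 genes. The highest library exceeded the lowest by 1.27-fold for Psmb7 and by 2.44-fold for Psmc6, and by under 2-fold for 38 of the 44. The sum of the beta ring was 1.83 times that of the alpha ring in the median HFD library and 1.77 times in the median NC library. The sum of the lid was 0.966 of that of the ATPases in the median HFD library and 0.936 in the median NC library.

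The immunoproteasome subunits, which replace the catalytic ones where interferon acts, were far lower than their counterparts under both diets. Psmb8 stood at 6.36 ± 0.960% of Psmb5 under HFD and 5.8 ± 1.26% under NC (SD, n = 18 each; two-sided permutation test within times with 100000 draws, p = 0.0844, adjusted over 3 ratios 0.253). Psmb9 stood at 4.97 ± 1.14% of Psmb6 under HFD and 4.65 ± 1.19% under NC (permutation p = 0.279, adjusted 0.419). Psmb10 stood at 7.75 ± 1.18% of Psmb7 under HFD and 7.65 ± 1.76% under NC (permutation p = 0.663, adjusted 0.663). None of the 3 ratios passed, and none of the 3 genes passed in level or rhythm. Leukocyte markers had the higher median under HFD for 7 of 7 genes and a median sum of 23.3 FPKM under HFD and 20.2 FPKM under NC, and their part was not tested.

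Of 26 other genes of the pathway (the core assembly factor Pomp, ubiquitin genes, shuttle factors, Vcp and its cofactors, and Nfe2l1), 0 were higher and 0 lower under HFD over the day in limma, against the same 5.25% and 11.4% of all genes. Under HFD 2 of the 26 were rhythmic and under NC 0, against the 7.3% and 7.77% of all genes given above. Ubb, a polyubiquitin gene, had a peak-to-trough range of 0.31 ± 0.08 under HFD (adjusted p of 0.0435 by limma) and 0.31 ± 0.08 under NC (adjusted p of 0.0676). Ubqln1, which carries ubiquitinated proteins to the proteasome, had 0.39 ± 0.10 under HFD (adjusted p of 0.0435) and 0.37 ± 0.11 under NC (adjusted p of 0.0952). The difference in rhythm had an adjusted p of 1.00 for both in limma, so neither is shown to differ between the diets. Nfe2l1 averaged 33.3 ± 3.61 FPKM under HFD and 33.3 ± 3.74 FPKM under NC (SD, n = 18 each), a log2 difference of 0.00 ± 0.04.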

How the data were processed

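The authors deposited 1 table of FPKM values per diet, each with 24883 rows and 18 libraries. The submitters' processing notes name Cuffnorm, Bowtie, CASAVA 1.8.2 and the build mm10. The sources used here give no versions for Cuffnorm and Bowtie, and do not state if 1 run made both tables, so diet and run cannot be told apart. TRIzol extraction and the TruSeq v2 library kit, which does not mark strand, are per the labels' protocols. The 817 rows of 280 repeated symbols were left out. Groups come from the sample titles; the labels do not say more of the replicates than their number, so p-values measure the spread between these samples.

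FPKM values are not counts, so limma 3.58.1 (R 4.3.3) was fitted with a mean-variance trend on log2(FPKM + 0.5) to the 11144 genes with a mean of at least 1 FPKM, with Benjamini-Hochberg adjustment over all of them and a threshold of 0.05. The pseudocount understates the change of low genes. Level over the day is the mean of 6 HFD group means minus that of 6 NC group means. Rhythm is the F test of a 24 h cosine and sine in each diet's libraries, and the difference in rhythm is their interaction with diet. The fits were run on simulated data with independent noise in each gene and library. No GC slopes or shifts of whole libraries were simulated, so their effect on the fits was not tested there. Relative depth was read from low values, 85.8% of which lay within 0.05 of whole multiples over 1372 genes; this is an estimate, and no count model was run. Named genes were up to 6 called members per comparison (otherwise the 3 of smallest p), the catalytic subunits, and the highest and lowest of each role; other genes named for a library or a single time were chosen after their values were seen. The members and gene lists were chosen with earlier results of these data known.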

Additional observations from a re-analysis of the deposited data

How the results depend on the processing

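The difference in rhythm between the diets called 0 of the 44 genes under each alternative run. Pseudocounts of 0.1 and 1, no filter and a robust prior changed none of the counts of called genes. For rhythm under HFD (0 called), a minimum mean of 5 FPKM gave 1 (Psmd7, with 9.68% of all genes called), median-ratio rescaling, upper-quartile rescaling and the GC correction gave 3 each (Psmd11, Psmd6 and Psmd7 for the rescalings, Psmd6, Psmd7 and Psmg3 for GC, with 7.36%, 7.16% and 9.93% of all genes called), and time as a factor gave 14 (28.4%). For rhythm under NC (1 called), dropping ZT0 and ZT4 or using time as a factor gave 0. For higher level (0 called), median-ratio rescaling gave 1 (Psmd10, with 7.5% of all genes called) and upper-quartile rescaling 2 (adding Psmd14, 8.11%). The GC correction gave 1 higher (6.95%), and 1 with the replicate block (6.47%). For lower level (3 called), median-ratio rescaling gave 0 (7.49% of all genes) and upper-quartile rescaling 0 (6.5%). The GC correction gave 5 lower (adding Psmc1 and Psmc6, 13.2%), and 5 with the replicate block (13%). Dropping ZT0 and ZT4 gave 1 lower (Psma4, 7.82%). In each of these level fits the share of the 44 lay below that of all genes. No count of higher or lower genes is given without the libraries with adrenal RNA, where NC ZT4 is 1 library. Single-time calls (0) became 21 without the libraries with adrenal RNA (44.3% of all genes were then called at ZT4). The causes were not tested.

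Leaving out 1 library gave 0 to 2 rhythmic genes under HFD, 1 to 1 under NC, 0 to 2 higher, 2 to 5 lower and 0 to 3 single-time calls. The highest count of rhythmic genes under HFD, 2, came without HFD ZT20 replicate 1 (4.5%, against 5.7% of all genes). Level counts were highest without NC ZT4 replicate 4, with 2 higher (4.5%, against 8.84%) and 5 lower (11.4%, against 15.7%). Without NC ZT0 replicate 4, 5 were lower too (11.4%, against 12.1%). The 3 single-time calls came without NC ZT4 replicate 2 (6.82% at ZT4, against 16.2%). That fit also had 4 lower over the day (9.09%, against 11.8%). HFD rhythm also became 1 without HFD ZT4 replicate 5 (2.27%, against 6.77%) and without HFD ZT16 replicate 1 (2.27%, against 6.44%). In each of these fits the share of the proteasome genes lay below that of all genes. None of the level differences recomputed gene by gene (Psma4, Psmd10, Psmd14, Psme1, Psme3 and Psmg1) changed sign.

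The labels do not say whether equal replicate numbers pair the libraries. Over 12 same-numbered pairs the correlation of deviations ran from −0.179 to 0.26, with 6 over 0.1. Of 24 libraries, 11 correlated best with their own number, among the 3 libraries of the other diet at that time. No level by chance was computed for this count, so it does not decide whether the libraries are paired. With the replicate block the counts were 0 and 1 rhythmic under HFD and NC, 0 for the difference, 0 higher, 3 lower and 0 at single times, as without it. Depth is uneven, from 0.338 to 1.45 of the typical library, and 3 libraries a group limit what single times can show.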
